A study of Mus musculus with 8 samples.

Results

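The glycolysis and pyruvate handling genes were 32 members chosen by name, all found among the 32285 genes of the deposited matrices. They cover the glucose transporters Slc2a1, Slc2a3 and Slc2a6, the glycolytic enzymes from hexokinase to pyruvate kinase (Hk1, Hk2, Hk3, Gpi1, Pfkl, Pfkp, Pfkm, Aldoa, Aldoc, Tpi1, Gapdh, Pgk1, Pgam1, Eno1, Eno2 and Pkm), and the phosphofructokinase regulators Pfkfb2, Pfkfb3 and Pfkfb4. They also cover lactate dehydrogenase (Ldha and Ldhb), the lactate transporters Slc16a1 and Slc16a3, and the genes that carry pyruvate into mitochondria or govern its oxidation there (Mpc1, Mpc2, Pdha1, Pdk1, Pdk3 and Pdk4). A member was taken by its symbol, and for Aldoa, which has 2 rows, the row listed ahead was used (the other held 5 UMIs in all). Live CD45+ immune cells were sorted from posterior eye cups (female mice, 10 to 12 weeks old) for single-cell RNA and antibody-tag sequencing. Each of the 4 groups was 1 library of pooled eyes. Without laser, 22 mice were pooled for WT control and 22 for Nr4a1-/- control. With laser, 11 to 12 mice were pooled per genotype (WT laser, Nr4a1-/- laser), 3 days after receiving 8 burns in each eye. The labels give C57BL/6J for every sample, whereas the study's methods give C57BL/6J for WT and the mixed line B6;129S2-Nr4a1tm1Jmi/J for Nr4a1-/-, a germline disruption in all cells. Strain therefore cannot be told apart from genotype, and the Nr4a1-/- control library also carries a different library number from the other 3. Laser burns rupture the membrane under the retinal pigment epithelium, and neovascularization grows from the choroid afterwards.

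Glycolysis turns glucose into pyruvate in the cytosol. Pyruvate is then either reduced to lactate by lactate dehydrogenase and exported by monocarboxylate transporters, or carried into mitochondria and oxidized by the pyruvate dehydrogenase complex, which pyruvate dehydrogenase kinases switch off. Several steps have isozymes encoded by separate genes that differ in regulation and tissue use. Among immune cells, neutrophils are known for a heavy reliance on glycolysis with few mitochondria, and macrophages are known to raise glycolytic genes on inflammatory activation.

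Cells were assigned by marker genes that include none of the members, and 13 lineages were compared. They included neutrophils, classical and non-classical monocytes, microglia, Lyve1/Folr2 macrophages, Spp1/Gpnmb macrophages and other C1q macrophages. The rest were cDC2, cDC1, migratory dendritic cells (DC), B cells, T cells and natural killer (NK) cells. Of 11624 barcodes, 11223 passed the filters and 10060 met a gate. The gated cells include small classes that were not compared. These were Gdf15/Cxcl3 macrophages (26 cells), retinal pigment epithelium (40), basophils or mast cells (45), plasma cells (31) and plasmacytoid DC (23). RNA depth ran from 7848548 UMIs (unique molecular identifiers, 1 per captured transcript) in Nr4a1-/- laser to 38052948 in WT laser, with median UMIs per cell of 3676 and 7618. Each gate held every marker of its own list, which follows largely from gating on these markers and does not check the gates. Nr4a1, the disrupted gene, stood at 309.4 and 277.3 CPM (UMIs of a gene scaled to 1000000 UMIs of the sum) in the WT control and laser libraries, and at 90.02 and 54.87 CPM in those of Nr4a1-/-. Its ratio was below 1 in the Nr4a1-/- library in every lineage and pair with enough UMIs except neutrophils of the laser pair (1.16, 95% interval 0.647 to 1.96, from 17 and 93 UMIs). Neutrophils had fewer UMIs in all (1130561) than any other lineage that reached 20 cells in every library. They came from 118 and 85 cells in WT and 75 and 32 in Nr4a1-/-. Wherever 4 values are given below, they follow this order, WT control before WT laser and then the Nr4a1-/- control before the Nr4a1-/- laser library. Spp1/Gpnmb macrophages and migratory DC reached 20 cells only in the 2 laser libraries, and non-classical monocytes only in the 2 WT libraries. Barcodes shared by 2 libraries numbered 18.

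The promoters of 4 members are printed because these members were the ones most raised after laser in the other C1q macrophages, as described further below. Each is the 250 bases before the RefSeq start, 5′ to 3′ on the gene's strand. Capitals mark ACGTG or its reverse complement CACGT, with overlapping matches running together as CACGTG. These are among the core letters that hypoxia-inducible factors and E-box factors can bind.
Gapdh (GRCm38.p6, chr6:125165774-125166023, minus strand): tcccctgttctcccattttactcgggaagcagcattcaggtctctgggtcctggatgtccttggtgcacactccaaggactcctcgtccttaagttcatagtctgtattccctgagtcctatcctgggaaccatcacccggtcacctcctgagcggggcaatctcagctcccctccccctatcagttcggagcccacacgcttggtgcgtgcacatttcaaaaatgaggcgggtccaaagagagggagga
Pgam1 (GRCm38.p6, chr19:41911621-41911870, plus strand): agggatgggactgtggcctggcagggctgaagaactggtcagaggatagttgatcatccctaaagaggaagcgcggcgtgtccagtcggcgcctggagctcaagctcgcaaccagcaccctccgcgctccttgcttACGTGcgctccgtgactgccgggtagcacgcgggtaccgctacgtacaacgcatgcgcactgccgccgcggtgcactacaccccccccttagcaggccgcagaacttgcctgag
Ldha (GRCm38.p6, chr7:46845554-46845803, plus strand): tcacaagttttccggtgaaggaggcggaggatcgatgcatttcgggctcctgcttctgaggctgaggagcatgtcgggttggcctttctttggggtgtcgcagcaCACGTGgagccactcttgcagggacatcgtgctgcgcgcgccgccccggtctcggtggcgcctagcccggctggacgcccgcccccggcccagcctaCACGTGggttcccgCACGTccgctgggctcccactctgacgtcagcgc
Slc16a3 (GRCm38.p6, chr11:120948817-120949066, plus strand): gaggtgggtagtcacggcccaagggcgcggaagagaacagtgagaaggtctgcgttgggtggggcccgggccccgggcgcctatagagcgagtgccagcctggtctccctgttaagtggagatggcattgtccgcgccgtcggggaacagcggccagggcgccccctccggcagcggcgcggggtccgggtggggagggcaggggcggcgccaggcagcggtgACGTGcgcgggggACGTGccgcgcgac
Ldha held 5 matches counted over both strands, where each CACGTG counts as 2. Slc16a3 held 2, Pgam1 held 1 and Gapdh held 0 in this window. Of the 31 members with a promoter entry, 14 (45.2%) held at least 1 match, beside 18.5% of 27025 genes with windows of the same length. A match is only these letters in this window, and no binding was measured here. Other letters that these factors can bind were not searched, so a count of 0 does not cover them.

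Lineages were compared on summed UMIs per lineage and library with edgeR's quasi-likelihood test and Benjamini-Hochberg adjustment over 12058 genes. A member was called at an adjusted p below 0.05 and a difference of at least 1.5-fold from the mean of the other 12 lineages. That mean was taken on the log scale, so a lineage with few or no UMIs lowers it and raises the differences of other lineages. Log2 differences are given with their standard errors. Of the 32 members, 30 were tested. Pfkm (muscle phosphofructokinase, 130 UMIs in all cells) and Pdk4 (6 UMIs) did not pass the low-count filter. Each library was used as a block, so the spread is what is left between the sums of a lineage once the library's own level is removed. The libraries are single pools of different conditions, so this spread does not measure that between animals.

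By their median log2 difference, the members were highest as a group in Spp1/Gpnmb macrophages, classical monocytes and neutrophils, and lowest in B and NK cells. In Spp1/Gpnmb macrophages 14 of 30 were higher and 2 lower, where 20.1% and 7.45% of all genes were higher and lower. Their median log2 difference was 0.92 against 0.14 over all genes. In classical monocytes 13 were higher and 1 lower (17.4% and 9.59% of all genes), with a member median of 0.55 against 0.02. In neutrophils 13 were higher and 3 lower (18.4% and 23.6%), with a median of 0.46 against -0.41. These 3 lineages shared a higher Pkm, Eno1 and Hk3.

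In lymphocytes most called members were lower. B cells had 3 higher and 18 lower (28.5% and 19.6% of all genes), with a member median of -0.94 against 0.12. NK cells had 2 higher and 13 lower (20.8% and 18.9%), with -0.76 against 0.02. T cells had 4 higher and 12 lower (27.1% and 18.8%), with -0.41 against 0.12. The higher ones were Slc2a3, Pdk1, Pdk3, Slc16a1 and Ldhb, none of them an enzyme between hexokinase and pyruvate kinase apart from Pfkp in NK cells.

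In resident macrophages and DC the members went both ways. Microglia had 10 higher and 10 lower (29% and 17.7% of all genes), with a member median of -0.25 against 0.09. Lyve1/Folr2 macrophages had 6 higher and 13 lower (25.3% and 11.4%), with -0.45 against 0.06. Other C1q macrophages had 6 higher and 1 lower (22.6% and 3.7%), a share near the background. Non-classical monocytes had 7 higher and 2 lower (13.7% and 5.91%). Among DC, cDC2 had 9 higher and 2 lower (19.3% and 8.39%), cDC1 6 higher and 8 lower (17.7% and 14.3%), and migratory DC 4 higher and 3 lower (12% and 6.56%). Without the WT laser library, edgeR called 8 members in cDC1 and 0 in migratory DC, where 1 sum was then left and 5 members had an unadjusted p under 0.05. The heat map of log2 differences shows these blocks side by side.

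**Figure D1:**
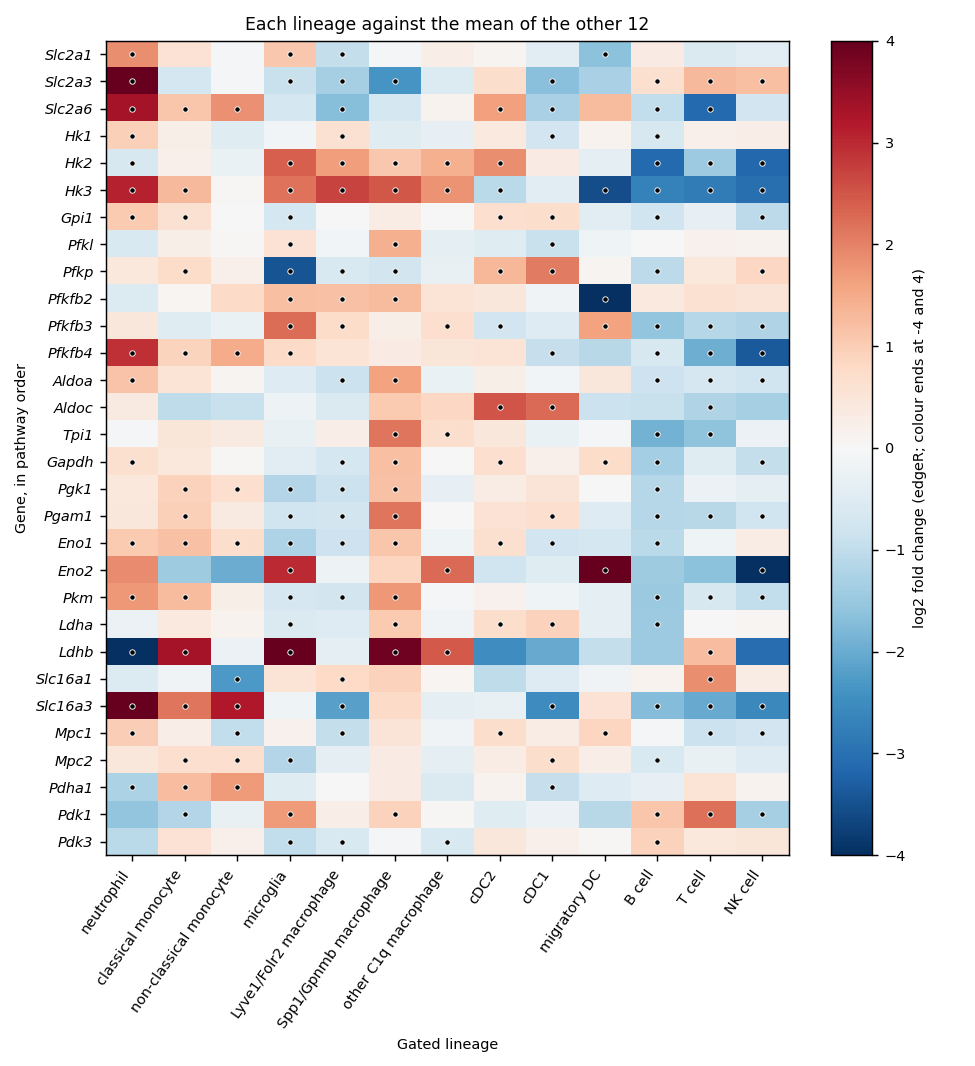
Log2 difference of each tested member (rows) from the mean of the other lineages, for the 13 lineages (columns), from the edgeR fit. Spp1/Gpnmb macrophages have 14 members called higher and B cells have 18 called lower, and Slc16a3 in neutrophils (5.11) and Ldhb in microglia (5.93) are among the largest positive values.

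Glucose enters through Slc2a1, Slc2a3 and Slc2a6, encoding GLUT1, the high-affinity GLUT3 and the lysosomal GLUT6, and all were called higher in neutrophils. Slc2a3 (ENSMUSG00000003153) stood at 390, 348, 304 and 177 CPM in neutrophils. NK cells, next in order, had a median of 39.5 CPM (range 36 to 46.1), so each neutrophil library lay above every library of every other lineage. Its log2 difference in neutrophils was 4.98 ± 0.24 (SE; edgeR adjusted p = 7.1e-20). Slc2a6 stood at 156, 86.4, 126 and 88.3 CPM in neutrophils, with a log2 difference of 3.33 ± 0.32 (adjusted p = 3.4e-11). Non-classical monocytes followed with 57.8 and 68.8 CPM in the WT libraries and a log2 difference of 1.83 ± 0.31 (adjusted p = 1.8e-05). The ranges of these neighbours did not overlap. Slc2a1 had 145, 80.8, 146 and 194 CPM in neutrophils, and its range there overlapped that of microglia (73.3 to 99.4 CPM). Both lineages were called higher, by 1.85 ± 0.19 and 1.09 ± 0.14 on the log2 scale. Over the UMIs of the 3 transporters, Slc2a3 took a median of 54.6% in neutrophils (38.5% to 67.6% over libraries), 50.7% in T cells and 44.7% in NK cells, whereas Slc2a1 took 81.4% in microglia and Slc2a6 took 76.2% in migratory DC.

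Slc2a3 was also higher in T cells (1.29 ± 0.25, adjusted p = 2.5e-05) and NK cells (1.21 ± 0.28, adjusted p = 0.00048). The call in B cells (0.64 ± 0.28, adjusted p = 0.048) lay close to the threshold. Lyve1/Folr2 macrophages fell by 1.33, Spp1/Gpnmb macrophages by 2.37 and cDC1 by 1.67 on the log2 scale, and these calls rested on few UMIs, at medians of 7.11, 2.1 and 5.17 CPM. These 4 Slc2a3 calls were not stable. The call in B cells was lost without WT laser (1.01) and without Nr4a1-/- laser (0.53). In Lyve1/Folr2 macrophages it was lost without WT control (-1.07) and without WT laser (-0.49), and the difference was 0.02 with cells thinned to equal depth. In Spp1/Gpnmb macrophages it was lost without either laser library (-2.84 and -2.21), and in cDC1 without WT control (-1.51), WT laser (-1.56) or Nr4a1-/- laser (-1.51). Slc2a6 was higher in cDC2 (1.64 ± 0.27, adjusted p = 7.1e-06) and classical monocytes, and lower in T cells (-3.10 ± 0.42), Lyve1/Folr2 macrophages (-1.70 ± 0.37) and cDC1 (-1.30 ± 0.51). The Slc2a6 call in cDC1 was lost with each of the 4 libraries left out (-1.43 to -1.12), with thinned cells and without cycling cells. Slc2a1 was lower in migratory DC, at 12.8 and 7.04 CPM in the laser libraries (-1.64 ± 0.46, adjusted p = 0.0065), a call lost without WT laser (-2.46).

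Lactate leaves cells mainly through Slc16a3 (MCT4), while Slc16a1 (MCT1) carries lactate and other monocarboxylates in both directions. Slc16a3 (ENSMUSG00000025161) had 966, 535, 856 and 388 CPM in neutrophils. Non-classical monocytes had 277 and 277 CPM in WT control and WT laser. Classical monocytes had 128, 171, 91.6 and 95.6 CPM. The ranges of these lineages did not overlap each other, and every other lineage had a lower median. The log2 differences were 5.11 ± 0.20 (adjusted p = 4.1e-21), 3.20 ± 0.25 (1.2e-12) and 2.15 ± 0.22 (4.1e-10). Slc16a3 was lower in NK cells, B cells, T cells (-2.01 ± 0.33), cDC1 (-2.50 ± 0.51) and Lyve1/Folr2 macrophages (-2.16 ± 0.35). With the stricter gate the calls were lost in T cells (-0.30), NK cells (-0.87) and Lyve1/Folr2 macrophages (-1.01), and with thinned cells that in cDC1 was lost (-1.24). Slc16a1 was highest in T cells, at 27, 21.9, 30.5 and 31.3 CPM, with a log2 difference of 1.86 ± 0.24 (adjusted p = 3.7e-09). T cells were thus on Slc16a1 for a median of 71.8% of the UMIs of the 2 transporters, and neutrophils on Slc16a3 for 99.8%. Slc16a1 was also called higher in Lyve1/Folr2 macrophages (0.78 ± 0.29, adjusted p = 0.02) and lower in non-classical monocytes (-2.29 ± 0.65, adjusted p = 0.0073), and neither call was stable. The first was lost with the stricter gate (0.39), without WT control (0.54) and without Nr4a1-/- control (0.72), and the second without WT control (-2.22) and with thinned cells (-2.39).

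**Figure D2:**
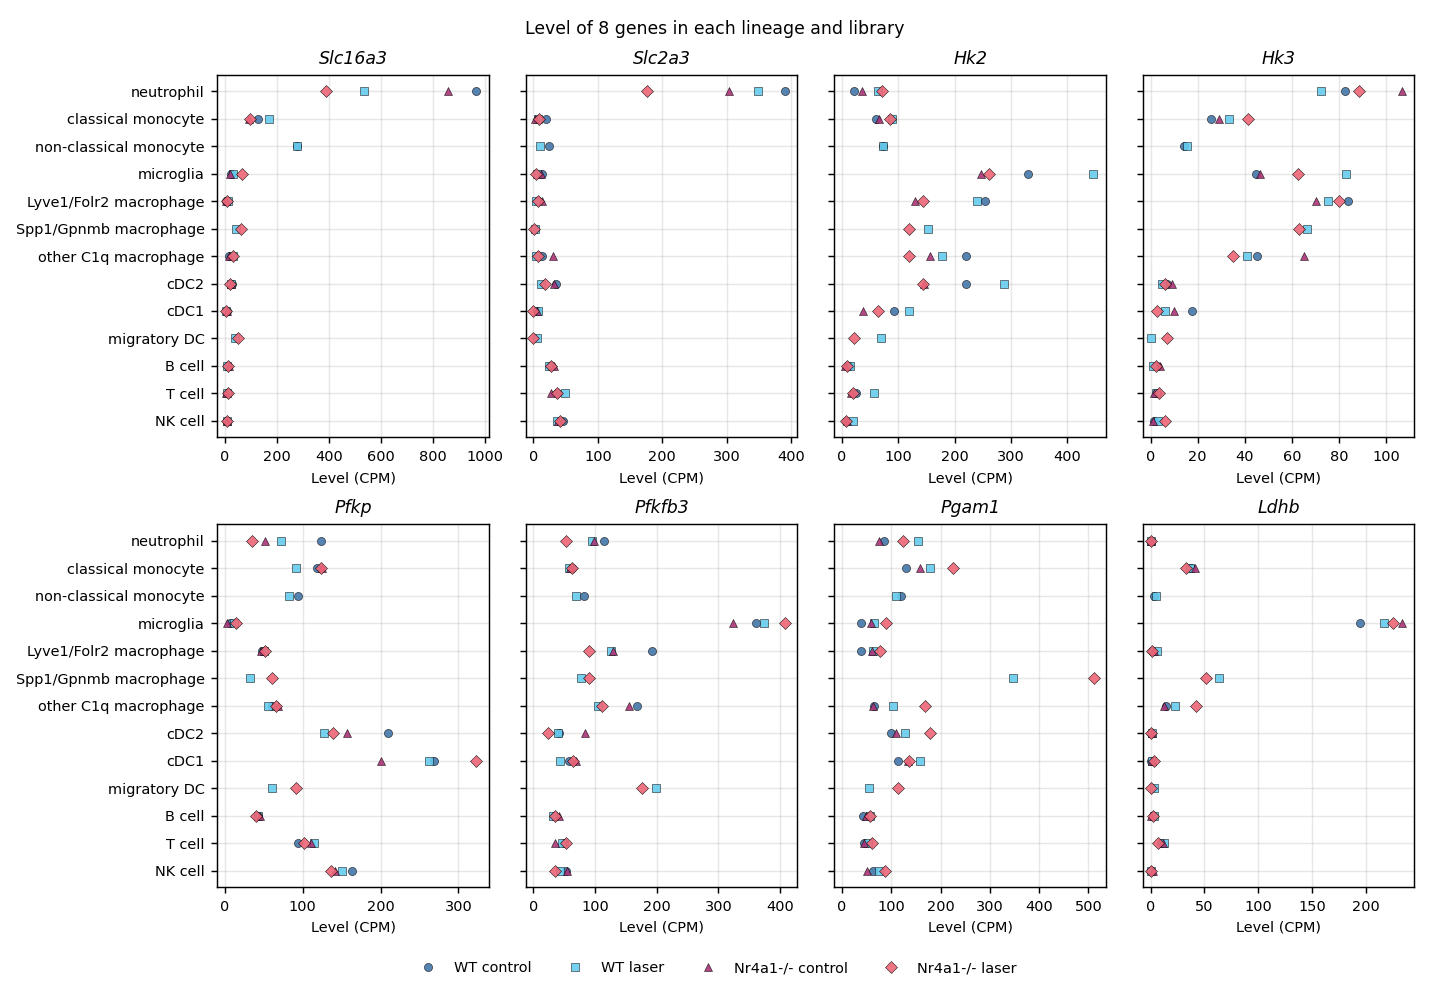
Level in CPM (linear axis) of selected members in each lineage, with 1 point per library. The 4 neutrophil points of Slc16a3 sit between 388 and 966 CPM and the 4 microglia points of Ldhb between 194 and 234 CPM.

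Hexokinases trap glucose as glucose phosphate. Hk1 is the housekeeping form, Hk2 an inducible mitochondria-bound form and Hk3 a form of myeloid cells. Hk2 (ENSMUSG00000000628) had 331, 446, 247 and 260 CPM in microglia, and its median was lower, in turn, in Lyve1/Folr2 macrophages (191), cDC2 (182) and other C1q macrophages (167), down to 11.2 in B cells and 8.03 in NK cells. The ranges of these 4 lineages overlapped, while all libraries of these 4 lineages lay above all libraries of T, B and NK cells. The log2 difference of Hk2 was 2.38 ± 0.12 in microglia (adjusted p = 1.3e-22), 1.84 ± 0.13 in cDC2, 1.66 ± 0.13 in Lyve1/Folr2 macrophages and 1.43 ± 0.13 in other C1q macrophages. It was -3.11 ± 0.21 in B cells and -3.13 ± 0.23 in NK cells. Its lower level in neutrophils (-0.64 ± 0.26, adjusted p = 0.041) was lost in DESeq2, without the library block, without cycling cells (-0.55), without WT control (-0.34) and without WT laser (-0.71).

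Hk3 (ENSMUSG00000025877) had 82.3, 72.5, 107 and 88.3 CPM in neutrophils and 83.5, 75.2, 70 and 80.1 CPM in Lyve1/Folr2 macrophages, so that the 2 lineages overlapped. Its log2 difference was 3.07 ± 0.25 in neutrophils (adjusted p = 1.1e-14), 2.70 ± 0.16 in Lyve1/Folr2 macrophages, 2.49 ± 0.23 in Spp1/Gpnmb macrophages, 1.81 ± 0.18 in other C1q macrophages and 1.29 ± 0.21 in classical monocytes. Hk3 was lower in B cells (-2.70 ± 0.48), T cells (-2.79 ± 0.50), cDC2 (-1.08 ± 0.36) and migratory DC (-3.55 ± 0.97). All 4 of these calls were lost with thinned cells. Without Nr4a1-/- laser those in B cells (-2.31), T cells (-2.49) and cDC2 (-0.70) were lost, and without WT laser that in migratory DC (-1.34). The 6 lineages with a higher Hk3, microglia included, were all phagocytes. In B and NK cells Hk1 was the main hexokinase in every library. Hk1 took a median of 80.8% of hexokinase UMIs in NK cells (58.1% to 83.3%) and 63.9% in B cells (53% to 73.3%). In T cells its share was 38.8% to 63.9% and that of Hk2 30.6% to 58.6%, so that these overlapped. Hk2 took 82.5% in cDC2 and 78.9% in microglia, and Hk3 took 47.8% in neutrophils (41.7% to 56.7%). These are shares of UMIs read from transcript ends, so gene length does not enter, but how well each end is captured does.

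**Figure D3:**
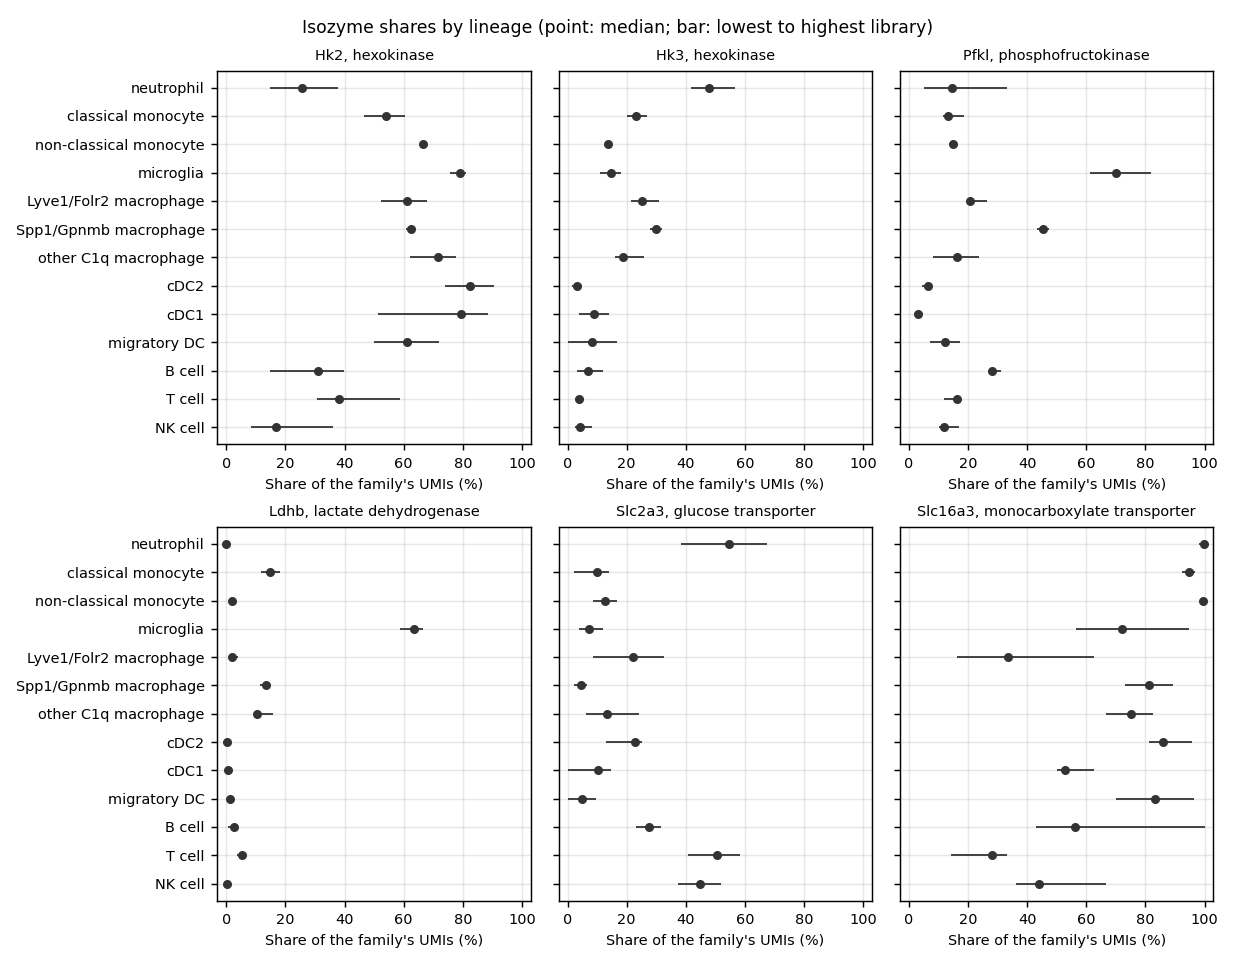
Share of an isozyme family's UMIs (percent) taken by Hk2, Hk3, Pfkl, Ldhb, Slc2a3 and Slc16a3 in each lineage. Points are medians over libraries, and bars run from the lowest to the highest library. Ldhb takes 63.5% of lactate dehydrogenase UMIs in microglia and 0 in neutrophils, and Pfkl takes 2.96% of phosphofructokinase UMIs in cDC1.

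Phosphofructokinase commits sugar to glycolysis, as liver (Pfkl), platelet (Pfkp) and muscle (Pfkm) forms. Pfkp (ENSMUSG00000021196) was the main form in each lineage but microglia, where its median share was 26.9% (10% to 32% over libraries). It had 6.95, 11, 3.05 and 14.7 CPM in microglia and 269, 262, 201 and 323 CPM in cDC1, without overlap. Its log2 difference was -3.45 ± 0.22 in microglia (adjusted p = 2e-18), 2.08 ± 0.13 in cDC1 (4.7e-18), 1.32 ± 0.14 in cDC2 and 0.82 ± 0.14 in NK cells. Pfkl had 30.1 and 48.1 CPM in Spp1/Gpnmb macrophages of the laser libraries (1.44 ± 0.21) and 21.3 to 31.2 CPM in microglia (0.59 ± 0.16). Both Pfkl calls were lost with thinned cells (0.66 and 0.49), the first also with the stricter gate (1.07) and the second also without Nr4a1-/- laser (0.50). Microglia accordingly had Pfkl in 70% of phosphofructokinase UMIs (61.2% to 82%) and Spp1/Gpnmb macrophages in 45.3%, against 2.96% in cDC1. Pfkm held at most 8% in any library and had 0 UMIs in neutrophils. Pfkp in Spp1/Gpnmb macrophages (-0.73 ± 0.24, adjusted p = 0.017) changed sign with a stricter gate (0.41) and was lost without WT laser (-0.31).

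The PFKFB genes encode enzymes that make and break the sugar bisphosphate that activates phosphofructokinase. Pfkfb3 (ENSMUSG00000026773) had 360, 375, 324 and 409 CPM in microglia, above every library of all other lineages. Its log2 difference was 2.23 ± 0.11 there (adjusted p = 7.5e-23) and 1.61 ± 0.21 in migratory DC (adjusted p = 2.5e-08), while cDC2 were lower (-0.77 ± 0.16, adjusted p = 0.00014). The migratory DC call was lost without WT laser (1.26). Pfkfb4 had 93.1, 103, 103 and 70.6 CPM in neutrophils, above the WT non-classical monocytes at 42.9 and 49.3 CPM. The log2 differences of Pfkfb4 were 2.93 ± 0.22 and 1.49 ± 0.22 in these lineages, and NK cells were lowest (-3.36 ± 0.36, adjusted p = 4.2e-11), a call lost without WT laser (-3.13). Pfkfb4 took 50% of PFKFB UMIs in neutrophils and Pfkfb3 90% in microglia. Pfkfb2 had medians of at most 10.2 CPM. It was called higher in Spp1/Gpnmb macrophages (1.26), microglia (1.22) and Lyve1/Folr2 macrophages (1.16 ± 0.36, adjusted p = 0.0068), and had 0 UMIs in migratory DC, which places it at least 1.82-fold lower there (3 counts over both libraries). The Pfkfb2 call in Spp1/Gpnmb macrophages was lost in DESeq2 (0.96), without WT laser (0.78) and without either Nr4a1-/- library (1.22 and 1.46), that in Lyve1/Folr2 macrophages without WT control (0.97), and that in migratory DC with any library left out.

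The other enzymes from glucose phosphate isomerase to pyruvate kinase, beside the phosphofructokinases above, were mostly called higher in Spp1/Gpnmb macrophages. Pgam1, Tpi1, Pkm, Aldoa, Gapdh, Pgk1 and Eno1 were all called higher there and Gpi1 was not (0.29 ± 0.15). Pgam1 (phosphoglycerate mutase, ENSMUSG00000011752) had 347 CPM in WT laser and 512 CPM in Nr4a1-/- laser. Classical monocytes, the next lineage, reached at most 226 CPM. Its log2 difference was 2.15 ± 0.14 (adjusted p = 3.7e-17). Tpi1 (triosephosphate isomerase) had 212 and 310 CPM and a log2 difference of 2.13 ± 0.15 (adjusted p = 1.9e-16). Pkm (pyruvate kinase) had 456 and 728 CPM in Spp1/Gpnmb macrophages and 490, 390, 612 and 477 CPM in neutrophils, which overlapped. Its log2 differences were 1.73 ± 0.15 and 1.74 ± 0.13, beside 1.26 ± 0.11 in classical monocytes and -1.49 ± 0.15 in B cells. Aldoa (aldolase) was 1.60 ± 0.16 and Gapdh 1.22 ± 0.17 in Spp1/Gpnmb macrophages. Tpi1 was lower in B cells (-1.88 ± 0.17, adjusted p = 1.4e-13) and in T cells (-1.61 ± 0.16). Aldoa, Gapdh, Pgk1, Pgam1, Pkm and Ldha have processed pseudogenes, and how reads shared with these were counted was not checked.

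Gpi1 and Eno1 followed a different order. Gpi1 (glucose phosphate isomerase) was highest in neutrophils, at 204 to 245 CPM (1.05 ± 0.13), and was also higher in cDC1 (0.69 ± 0.11, adjusted p = 1.6e-06), cDC2 and classical monocytes. Eno1 (enolase) was higher in classical monocytes (1.18 ± 0.13), neutrophils (1.05 ± 0.18), Spp1/Gpnmb macrophages, non-classical monocytes and cDC2, and lower in microglia (-1.23 ± 0.16, adjusted p = 8e-09). Without WT control the calls of Gpi1 in classical monocytes (0.53) and of Eno1 in non-classical monocytes (0.49) and cDC2 (0.57) were lost, and without Nr4a1-/- control that of Gpi1 in classical monocytes (0.56). Of the rarer isozymes, Aldoc (aldolase C) was called higher in cDC2 at 14.3, 9.43, 17.4 and 3.12 CPM (2.51 ± 0.35, adjusted p = 1.2e-07) and in cDC1 at 6.68, 11.5, 11.6 and 8.28 CPM (2.26 ± 0.43, adjusted p = 2.4e-05). It took 6% and 5.54% of aldolase UMIs in these DC. Eno2 (neuronal enolase) was called higher in migratory DC at 12.8 and 28.2 CPM (4.21 ± 0.65, adjusted p = 1.5e-06), microglia at 6.95, 12.9, 5.49 and 5.5 CPM (2.97 ± 0.34) and other C1q macrophages (2.26 ± 0.39). The migratory DC levels rest on few Eno2 UMIs, in sums of 700887 UMIs (WT laser, 55 cells) and 141974 UMIs (Nr4a1-/- laser, 23 cells). Photoreceptor markers, from neurons of the same tissue, summed to 480 CPM in cDC1 of WT control. They summed to at most 38 CPM in every other sum of the 13 lineages, and their part in the Eno2 values was not tested. NK cells had 0 Eno2 UMIs of 4364690, at least 4.66-fold lower than the mean of the other lineages' medians (3 counts over the 4 libraries).

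Lactate dehydrogenase differed between lineages in which form was read. Its A form favours reduction of pyruvate to lactate, and the B form is known for the reverse reaction. Ldhb (ENSMUSG00000030246) had 194, 217, 234 and 226 CPM in microglia. The next lineages were Spp1/Gpnmb macrophages at 63.7 and 51.8 CPM and classical monocytes at 37.5, 36.8, 41.7 and 32.6 CPM. These ranges did not overlap, and neutrophils had 0 Ldhb UMIs of 1130561 in all 4 libraries. The log2 difference was 5.93 ± 0.17 in microglia (adjusted p = 1.1e-30), 3.91 ± 0.28 in Spp1/Gpnmb macrophages (4.2e-15), 3.34 ± 0.26 in classical monocytes (1.1e-14), 2.45 ± 0.28 in other C1q macrophages and 1.25 ± 0.32 in T cells (adjusted p = 0.00092). The 0 in neutrophils lowers the log mean behind these differences and so raises them. Neutrophils were at least 11.2-fold below the mean of the other medians (3 counts over the 4 libraries). This call was lost with cells thinned to equal depth and without the WT laser library (fitted -4.25 and -5.40, no bounds), and the T cell call with the stricter gate (0.60). Ldhb took 63.5% of lactate dehydrogenase UMIs in microglia (58.9% to 66.6%), 14.8% in classical monocytes, 13.3% in Spp1/Gpnmb macrophages and 5.26% in T cells. Ldha (ENSMUSG00000063229) was highest in Spp1/Gpnmb macrophages at 360 to 396 CPM (1.06 ± 0.15), and was higher in cDC1 (0.91 ± 0.12, adjusted p = 1.6e-08) and cDC2 (0.70 ± 0.12). B cells (-1.45 ± 0.14) and microglia (-0.59 ± 0.13) were lower, and NK cells (0.09 ± 0.12) and T cells (0.01 ± 0.12) were not called. The microglia call was lost under several settings, among them DESeq2 (-0.51), the stricter gate (-0.32) and leaving out either WT library (-0.54 and -0.51).

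The genes for mitochondrial pyruvate use were spread over other lineages. Pdha1, a catalytic subunit of pyruvate dehydrogenase, had 115 and 90 CPM in WT non-classical monocytes (1.71 ± 0.16, adjusted p = 1.4e-12) and 58.7 to 75.4 CPM in classical monocytes (1.22). Neutrophils were lowest at 0 to 19.5 CPM (-1.27 ± 0.32, adjusted p = 0.00095), a call lost with thinned cells (-1.09). Pdk1, a kinase that switches the complex off, had 47.1, 31.6, 42.5 and 25.8 CPM in T cells (2.19 ± 0.19, adjusted p = 6.7e-14), and was higher in microglia (1.69) and B cells (1.09 ± 0.22), although both were lost with the stricter gate (0.47 and -0.04). Pdk3, a kinase of the same family, was highest in B cells at 27.3, 29, 31.9 and 32.6 CPM (0.92 ± 0.19, adjusted p = 3.1e-05). The B cell range of Pdk3 overlapped that of NK cells (20.3 to 28.1). Pdk3 took 83.1% of the kinase UMIs in NK cells and 88.8% in classical monocytes, and Pdk1 took 77.3% in microglia and 63.4% in T cells. The lower calls of Pdk1 in classical monocytes (-1.18 ± 0.37) and of Pdk3 in other C1q macrophages (-0.61 ± 0.23) were lost without WT control (-1.13 and -0.37) and without WT laser (-1.33 and -0.41), the Pdk1 call also with thinned cells (-0.37) and the Pdk3 call also without Nr4a1-/- control (-0.56). Mpc1 and Mpc2 form the mitochondrial pyruvate carrier. Mpc1 was higher in neutrophils (0.99 ± 0.13) and migratory DC (0.86 ± 0.17, adjusted p = 0.00012, but 0.55 and not called without WT laser) and lower in non-classical monocytes (-0.99 ± 0.17, adjusted p = 1.2e-05). Mpc2 was lowest in microglia (-1.17 ± 0.11, adjusted p = 5.7e-13). Mpc1 therefore held 78.5% of carrier UMIs in microglia and 35.1% in non-classical monocytes.

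Pairs of related lineages were compared within the same fit. Neutrophils against classical monocytes had 9 members higher and 4 lower (15.5% and 23.1% of all genes). Slc2a3 (5.26 ± 0.38, adjusted p = 7.3e-14), Eno2 (3.06 ± 1.16), Slc16a3 (2.73 ± 0.30, adjusted p = 4.2e-09) and Slc2a6 (2.04 ± 0.38) led the higher ones, while Pdha1 (-2.30 ± 0.32, adjusted p = 5.8e-08), Pdk3 (-1.52 ± 0.54) and Ldhb, at 0 UMIs in neutrophils, were lower. The Eno2 and Pdk3 calls of this pair were lost without Nr4a1-/- control (3.08 and -1.25), and the Pdk3 call also without Nr4a1-/- laser (-1.38). Pkm, Aldoa, Gapdh and Eno1 were not called in this pair, with differences below 1.5-fold. Non-classical monocytes differed from classical monocytes in few members, since 4 were higher in classical cells and 1 lower (8.55% and 7.51% of all genes). Ldhb (3.29 ± 0.44, adjusted p = 3.1e-07), Mpc1 (1.16 ± 0.20), Hk3 (1.15 ± 0.33) and Pkm (0.96 ± 0.21) were higher in classical cells. Slc16a3 (-0.97 ± 0.34, adjusted p = 0.048) was lower. The Hk3 call was lost without WT control (1.21) and without WT laser (1.099), the Pkm call without WT laser (0.75), and the Slc16a3 call in DESeq2 and with each of the 4 libraries left out (-1.18 to -0.90).

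Spp1/Gpnmb macrophages against other C1q macrophages gave 13 members higher and 0 lower, where 7.43% and 7.91% of all genes were called. The enzymes of the lower pathway made up most of them. Pgam1 had 347 and 512 CPM against 103 and 168 CPM in the same laser libraries (2.00 ± 0.19, adjusted p = 7e-10). Aldoa had 453 and 572 against 184 and 195 CPM (1.72 ± 0.20, adjusted p = 1.1e-07). Pfkl had 30.1 and 48.1 against 10.9 and 12.8 CPM (1.67 ± 0.26, adjusted p = 1.2e-05). Pkm had 456 and 728 against 214 and 231 CPM (1.66 ± 0.20, adjusted p = 1.1e-07). Each Spp1/Gpnmb value lay above each value of the other C1q macrophages for these 4 genes, and Pgk1, Ldhb, Tpi1, Eno1, Gapdh and Ldha followed with log2 differences from 1.39 to 1.11. The Pfkl call was lost with thinned cells (0.97) and with the stricter gate (1.76), and the Ldhb call with the stricter gate (0.16) and without WT laser (1.03). Without 1 library at a time, 10 to 12 members were called. Cycling cells numbered 26 of 164 and 18 of 103 in Spp1/Gpnmb macrophages, and 70 of 438 and 45 of 236 in other C1q macrophages of the laser libraries.

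Microglia against Lyve1/Folr2 macrophages had 9 members higher and 4 lower (18.1% and 17.2% of all genes). Ldhb (5.81 ± 0.28, adjusted p = 9.4e-21), Eno2 (2.92 ± 0.54), Slc2a1 (1.87 ± 0.21, adjusted p = 2.6e-10) and Slc16a3 (1.85 ± 0.42) were higher in microglia. Pfkp (-2.62 ± 0.26, adjusted p = 1.1e-11), Mpc2 (-0.73 ± 0.14) and Gpi1 (-0.67 ± 0.15) were lower, and the last 2 calls were lost with the stricter gate (-0.49 and -0.42). T cells against B cells had 12 higher and 4 lower (15.2% and 15.4%). Ldhb (2.49 ± 0.40, adjusted p = 2.1e-06), Slc16a1 (1.58 ± 0.33), Hk2 (1.54 ± 0.25) and Ldha (1.35 ± 0.17, adjusted p = 6.5e-09) were higher in T cells, and Slc2a6 (-1.95 ± 0.54), Pfkfb4 (-1.19 ± 0.30) and Slc2a1 (-0.85 ± 0.20) were lower. The Pfkfb4 call was lost with the stricter gate (-1.09) and with thinned cells (-0.61).

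Laser and control were compared within each lineage and genotype as ratios of CPM, with no test, since each condition was 1 library. Intervals are exact conditional binomial 95% intervals that cover counting error only, not the spread between animals. A member was counted as past the fold when it was at least 1.5-fold the same way in both genotypes with at least 20 UMIs in each pair. Fewer or more cells of a state within a lineage and a different level per cell cannot be told apart in these sums.

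Glycolytic members were higher after laser mainly in the other C1q macrophages, where 7 of 24 eligible members were past the fold upwards and 1 downwards, beside 7.36% and 12.1% of all eligible genes. Gapdh (ENSMUSG00000057666) was at 263 CPM before and 544 CPM after laser in WT, and at 288 and 699 CPM in Nr4a1-/-. The ratios were 2.07 (1.85 to 2.32) in WT and 2.43 (2.1 to 2.82) in Nr4a1-/-. Slc16a3 had 17.4, 30.9, 17.2 and 32.4 CPM, with ratios of 1.77 (1.14 to 2.86) and 1.89 (1 to 3.77). Both laser libraries lay above both controls for these genes. Ldha had 128, 207, 104 and 224 CPM, with ratios of 1.62 (1.38 to 1.92) and 2.15 (1.67 to 2.77). Pgam1 had 63.9, 103, 62.5 and 168 CPM, with ratios of 1.61 (1.28 to 2.05) and 2.69 (1.97 to 3.73). Ldhb, Mpc2 and Pdha1 were also past the fold, with ratios from 1.53 to 3.41, but without cycling cells Ldhb (1.37 in WT), Pdha1 (1.46 in WT) and Slc16a3 (1.41 in Nr4a1-/-) were below it. With cells thinned to equal depth, Slc16a3 had a ratio of 1.29, Pdha1 of 1.08 and Ldhb of 0.455 in WT. Slc2a3 was lower after laser, at 4.41 against 13.1 CPM in WT and 7.68 against 30.7 CPM in Nr4a1-/-, with ratios of 0.337 (0.168 to 0.681) and 0.251 (0.103 to 0.555). The dissociation-response genes of the same sums, 6 early genes and heat-shock genes, were also lower after laser, from 6099 to 4167 CPM and from 6005 to 3947 CPM, and retinal pigment epithelium markers from 45 to 9.05 and from 71.1 to 1.71 CPM. Their part in these values was not tested.

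Microglia had 2 of 26 members past the fold upwards and 1 downwards (6.84% and 4.92% of eligible genes). Gapdh had 240, 403, 290 and 482 CPM, with ratios of 1.68 (1.53 to 1.84) and 1.67 (1.43 to 1.94), and Pgam1 had ratios of 1.64 (1.3 to 2.08) and 1.53 (1.06 to 2.19). Without cycling cells the ratios were 1.28 and 1.27 for Gapdh and 1.28 and 1.31 for Pgam1, below the fold. Slc2a3 had ratios of 0.438 and 0.317 on 22 and 37 UMIs in WT and 2 and 19 UMIs in Nr4a1-/-, and its ratio in WT was 1.78 with thinned cells. Dissociation-response genes of the same microglia summed to fewer UMIs after laser, from 12458 to 4260 CPM in WT and from 13281 to 5559 CPM in Nr4a1-/-, and their part was not tested.

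Neutrophils had 1 of 17 members past the fold upwards and 1 downwards (11.3% and 6.25% of eligible genes). Slc16a3 was at 966 and 535 CPM in WT (ratio 0.554, 0.465 to 0.657) and at 856 and 388 CPM in Nr4a1-/- (0.454, 0.279 to 0.705), and stayed lower under trimmed-mean (TMM) scaling (0.419 and 0.278). Pgam1 had ratios of 1.81 (1.18 to 2.81) and 1.65 (0.586 to 4.09), which TMM scaling brought to 1.37 and 1.01. That scaling moved the median log2 ratio of all genes in neutrophils from 0.118 to -0.286 in WT and from -0.0863 to -0.791 in Nr4a1-/-, so the neutrophil ratios depend on it. In 11 of 39 other lineage and pair combinations it moved that median by over 0.1, within -0.24 and 0.12. T cells had 1 of 25 upwards and 0 downwards (4% and 1.52%), namely Aldoa at 104, 166, 101 and 156 CPM with ratios of 1.59 (1.41 to 1.81) and 1.55 (1.2 to 2.01).

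The other lineages had members past the fold only downwards or not at all. Lyve1/Folr2 macrophages had 0 of 24 upwards and 2 downwards (3.57% and 6.05%), Slc16a1 with ratios of 0.447 and 0.445 and Slc2a3 with 0.519 and 0.603. With cells thinned to equal depth this Slc2a3 ratio was 1 in WT and 1.05 in Nr4a1-/-. In cDC2, 0 of 22 were past the fold upwards and 2 downwards (4.46% and 3.76%), Slc2a3 with ratios of 0.34 and 0.549 and Hk1 with 0.628 and 0.562 (5.14 in WT with thinned cells). Classical monocytes had 0 of 24 up and 1 down (1.12% and 1.85%), Slc2a1 with 0.62 (0.469 to 0.816) and 0.466 (0.251 to 0.808). No member passed in cDC1 (0 of 15; 4.1% up and 4.7% down), B cells (0 of 25; 1.01% and 1.27%) or NK cells (0 of 19; 1.33% and 0.779%).

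Several members moved the same way in most lineages but were past the fold in few or none of these. The ratio of laser to control for Gapdh was above 1 in 11 of 11 lineages in WT and in 10 of 10 in Nr4a1-/-, with intervals above 1 in 9 and 8, although under TMM scaling 1 lineage of each genotype was below 1. Ldha was above 1 in 11 of 11 lineages in WT and 8 of 10 in Nr4a1-/-. Slc2a1 was below 1 in 8 of 11 and 9 of 10, and under TMM scaling in 8 and 10. Pfkfb3 was below 1 in 10 of 11 and 7 of 10. Lineages of 1 library share its handling and are not replicates. Spp1/Gpnmb macrophages and migratory DC had no control sum to compare.

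**Figure D4:**
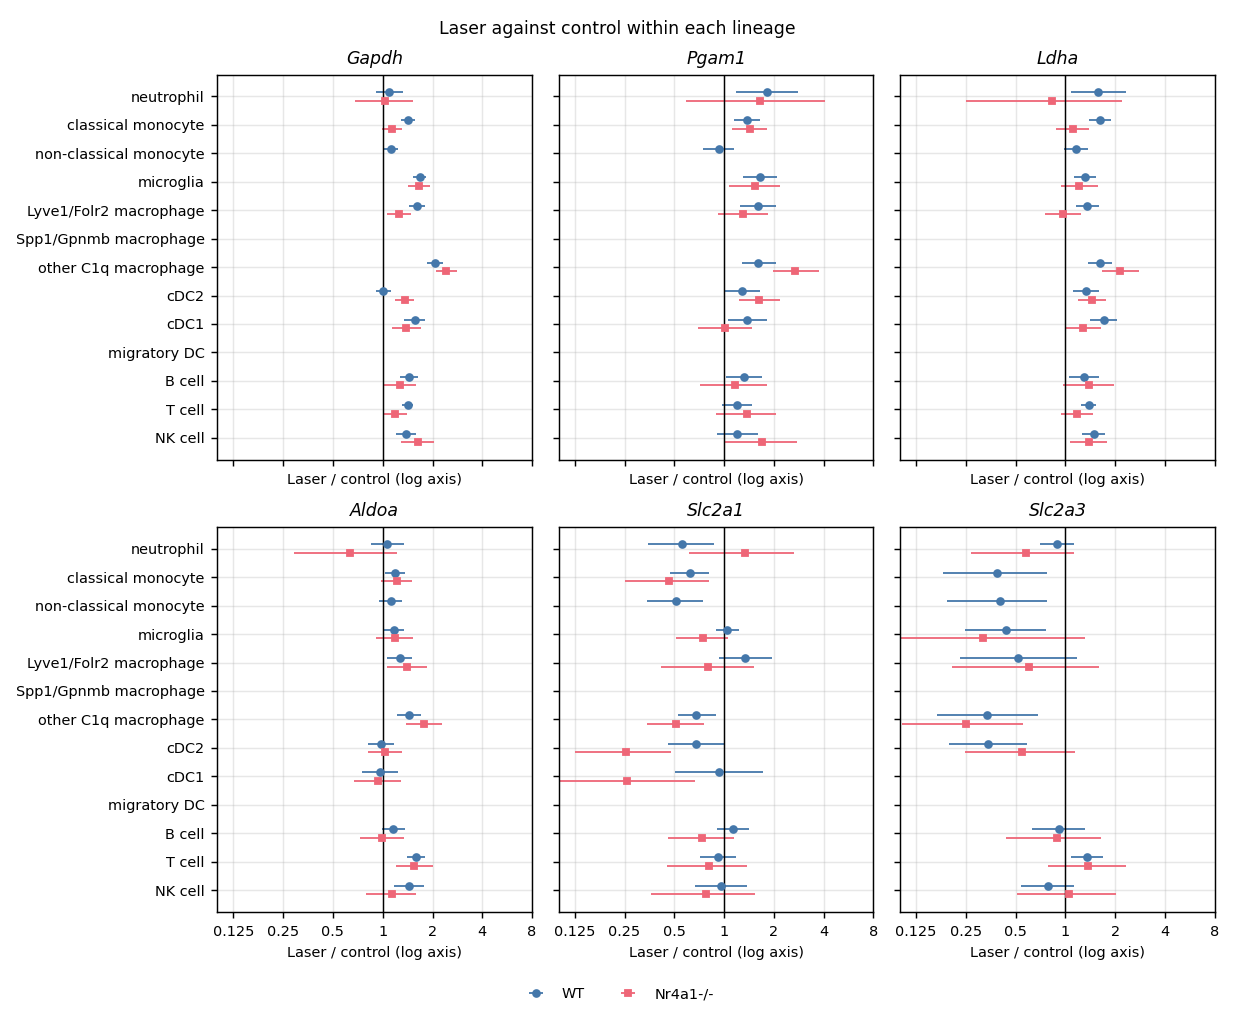
Ratio of laser to control CPM (log axis) in each lineage and genotype for selected members, with 95% counting intervals; bars that reach the left edge run on beyond the axis. In other C1q macrophages Gapdh lies at 2.07 in WT and 2.43 in Nr4a1-/-, and Slc2a3 at 0.337 and 0.251.

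Genotype was compared in the same way within control and within laser. Eno1 and Hk2 were the members that were lower in Nr4a1-/- across lineages. Eno1 (ENSMUSG00000063524) was below 1 in 9 of 10 lineages of the control pair and in 12 of 12 of the laser pair, with intervals below 1 in 7 and 8, and the counts of lineages were the same under TMM scaling. In classical monocytes it had 173 CPM in WT control and 110 in Nr4a1-/- control (ratio 0.638, 0.519 to 0.781), and 196 in WT laser and 86.9 in Nr4a1-/- laser (0.444, 0.311 to 0.619). In cDC2 the ratios were 0.591 (0.432 to 0.804) and 0.404 (0.268 to 0.589), in cDC1 0.528 and 0.376, in microglia 0.609 and 0.592, and in B cells 0.63 and 0.607. Eno1b, a near-identical copy that could share reads, had at most 8 UMIs in any sum. How reads shared with Eno1b were counted was not checked, so this low count cannot show whether sharing affected Eno1. Hk2 was below 1 in 7 of 8 lineages of the control pair and 11 of 12 of the laser pair, with intervals below 1 in 6 and 8. In Lyve1/Folr2 macrophages it had 254 and 129 CPM in the controls (0.509, 0.42 to 0.612) and 239 and 144 CPM after laser (0.602, 0.499 to 0.723). The ratios in cDC2 were 0.658 (0.52 to 0.83) and 0.499 (0.398 to 0.621), and in cDC1 0.396 and 0.531. With cells thinned to equal depth, the control ratio of Hk2 in cDC2 was 1.57 and the laser ratio of Eno1 in B cells was 1.28. Strain, and for the control pair the library number, cannot be told apart from genotype in these ratios.

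**Figure D5:**
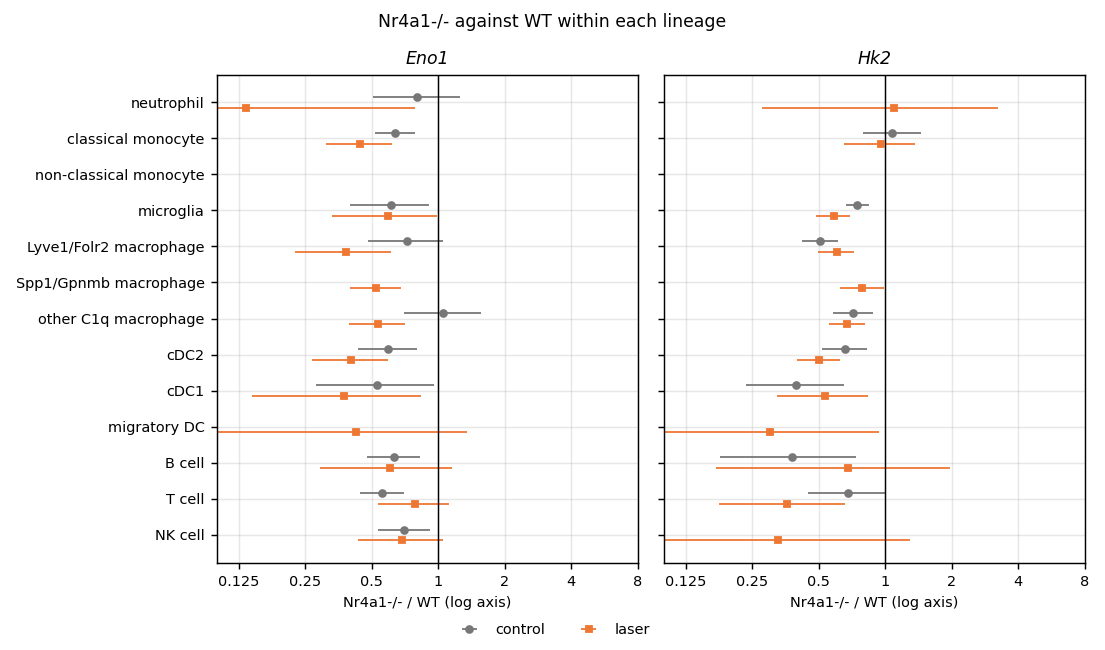
Ratio of Nr4a1-/- to WT CPM (log axis) in each lineage for selected members in the control pair and the laser pair, with 95% counting intervals; bars that reach the left edge run on beyond the axis. Eno1 lies below 1 in 9 of 10 lineages in the control pair and in 12 of 12 in the laser pair.

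Few members were past the fold for genotype in both pairs. Downwards these were 2 of 23 in cDC2 (1.98% of eligible genes), 2 of 15 in cDC1 (2.04%), 1 of 24 in classical monocytes (2.88%), 1 of 28 in microglia (3.07%), 1 of 25 in Lyve1/Folr2 macrophages (1.71%), 2 of 23 in B cells (1.1%), 1 of 21 in NK cells (1.73%) and 1 of 19 in neutrophils (3.62%), with 0 of 25 in other C1q macrophages (1.61%) and 0 of 26 in T cells (2.85%). Beyond Eno1 and Hk2 they were Pdk1 in B cells (0.656 and 0.506), Slc16a1 in NK cells (0.617 and 0.242, on 1 UMI in Nr4a1-/- laser) and Pfkp in neutrophils (0.415 and 0.487, on 2 UMIs in Nr4a1-/- laser). Upwards, Slc2a3 passed in other C1q macrophages (2.35 and 1.74) and Lyve1/Folr2 macrophages (1.89 and 2.19), and Pfkfb4 (1.63 and 3.67) and Pfkfb2 (1.73 and 1.52) in T cells, all on fewer than 50 UMIs a pair. The upward counts were 1 of 25 (1.24% of eligible genes), 1 of 25 (1.15%) and 2 of 26 (0.667%) in these lineages. They were 0 in neutrophils (2.11%), classical monocytes (1.88%), microglia (1.45%), cDC2 (1.33%), cDC1 (1.82%), B cells (0.653%) and NK cells (0.998%). Apart from Eno1 and Hk2, each of these 7 results had an interval that included 1 in at least 1 pair, so a difference was not shown at this depth.

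Other genes of the pathway were counted on 4 lists: other glycolysis and glucose entry (14 of 27 tested), pyruvate dehydrogenase and pyruvate use (15 of 19), pentose phosphate (8 of 8), and regulators and targets of hypoxia-inducible factor (HIF, 13 of 14). In microglia 6 of 14 genes of the list of other glycolysis and glucose entry were higher and 1 lower, beside 29% and 17.7% of all genes, with a list median of 0.50 against 0.09. Slc2a5, the fructose transporter, led them at 57.7 to 107 CPM (7.68 ± 0.23, adjusted p = 1.4e-26), with Slc2a9 (2.16 ± 0.28) and Slc2a8 (1.96 ± 0.28). Eno3, the muscle enolase, was called higher in WT non-classical monocytes at 329 and 349 CPM (5.64 ± 0.18) and migratory DC at 282 and 307 CPM (5.73 ± 0.24). No library of another lineage exceeded 14.3 CPM. Lyve1/Folr2 macrophages had 5 of 14 higher and 0 lower (25.3% and 11.4% of all genes), with a list median of -0.01 against 0.06, so that the share was near the background. The monocarboxylate transporter Slc16a7 led them (2.95 ± 0.15). Spp1/Gpnmb macrophages had 6 higher and 0 lower (20.1% and 7.45%), with a list median of 0.995 against 0.14.

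In the pentose phosphate list, which supplies reducing power, neutrophils had 3 of 8 higher and 1 lower (18.4% and 23.6% of all genes), with a list median of 0.48 against -0.41. Classical monocytes had 5 higher and 0 lower (17.4% and 9.59%), with 1.09 against 0.02. Pgd (2.69 ± 0.13, adjusted p = 1.2e-22), Taldo1 (2.60 ± 0.14) and G6pdx (0.96 ± 0.27) were higher in neutrophils, and Pgls (-1.91 ± 0.23) was lower. B, T and NK cells each had 1 higher and 4 lower (19.6%, 18.8% and 18.9% of all genes lower), with Pgd lower in each (-1.44, -1.81 and -1.58). For pyruvate use, neutrophils had 2 higher and 8 lower of 15 (18.4% and 23.6%), with a list median of -1.25 against -0.41, among them Got1 (-2.61 ± 0.29, adjusted p = 2.2e-10). Pdp2, a phosphatase that switches pyruvate dehydrogenase on, was listed at 0 in all 4 neutrophil libraries. Among regulators and HIF targets, Spp1/Gpnmb macrophages had 6 of 13 higher and 1 lower (20.1% and 7.45%), with a list median of 0.52 against 0.14. Vegfa (2.87 ± 0.36, adjusted p = 1e-07), Epas1 (2.25 ± 0.61) and Bnip3 (1.69 ± 0.30) were higher and Myc (-1.67 ± 0.55) was lower. Epas1 stood at only 4.94 to 5.52 CPM there, below T cells at 14.8 to 33.7 CPM. It was 0 in every compared sum of neutrophils, cDC2 and migratory DC, which lowers the log mean behind its difference. Neutrophils had 6 higher and 2 lower (18.4% and 23.6%; 0.50 against -0.41), with Egln3 (3.57 ± 0.56), Bnip3 (2.51 ± 0.32) and Vegfa (2.18 ± 0.45) higher and P4ha1 (-2.03 ± 0.28) lower. Vegfa was lower in microglia (-3.70 ± 0.57) and higher in NK cells (3.20 ± 0.25).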

How the data were processed

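Immune cells of the posterior eye were profiled in 4 RNA libraries with 4 matching antibody tag libraries (87 tags, used only to check the gates). The authors mapped reads with Cell Ranger 7.0.1 to mm10 and deposited filtered raw UMI counts per gene and cell, without normalization. Whether the 10x kit was v2 (labels) or v3 (methods) is unsettled. Genotype and treatment of the tag samples, all labelled alike, were taken from their titles.

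Kept were cells that had 200 to 5000 genes detected and no more than 15% of UMIs from mitochondrial genes. Marker scores assigned a lineage where the leading score was at least 1.25 times the next, so 10.36% of cells had none and 577 cells lay near the limit. No doublet caller was run. Counts were summed per lineage and library (at least 20 cells) and fitted with edgeR 4.0.16 in R 4.3.3 (TMM, robust quasi-likelihood test, lineage plus library as block, at least 10 UMIs in at least 4 sums, 30 residual degrees of freedom). The study tested cells by rank, which was not done here. DESeq2 1.42.0 was an alternative. The fit was tested on simulated counts. CPM ratios had exact 95% intervals that cover counting error only, and 0 counts were taken as a limit of 3. Isozyme shares are percentages of a family's UMIs. Python 3.11.15, numpy 2.4.6, pandas 2.3.3 and scipy 1.17.1 were used.

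Members, lists and tests were chosen with earlier results of these data known. Named were up to 4 called members with the largest positive and 3 with the largest negative difference per contrast, up to 4 per direction and lineage for laser and genotype, each isozyme family, Nr4a1, and up to 3 genes per list and direction. Other values describe the rest. Alternatives were another normalization, DESeq2, no low-count filter, no library block, each library left out, a stricter gate (3 markers, at most 1 UMI of another lineage's), thinning to 2000 UMIs per cell, no upper limit on genes, no cycling cells, a 10% mitochondrial limit, and for ratios TMM scaling, 50 UMIs and 2-fold. Promoter sequences come from RefSeq on GRCm38.p6.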

Additional observations from a re-analysis of the deposited data

How the results depend on the processing

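Of 245 member calls, 236 were kept with RLE size factors, 232 with DESeq2, 235 without the low-count filter, 236 without the upper limit on genes, 230 without cycling cells, 230 of 239 with a 10% mitochondrial limit, 192 of 232 with thinned cells and 95 of 140 with the stricter gate, which left no value for neutrophils, monocytes or dendritic cells. Without the replicate block, which stands for the library, 233 of 245 calls were kept and no lineage's count moved by over 1.5 times. The stricter gate gave 13 called members in microglia and 9 in Lyve1/Folr2 macrophages, and thinning gave 5 in cDC1. Leaving out a library gave 8 to 14 called members in cDC1 (8 without WT laser), 0 to 6 in migratory DC (0 without WT laser, 6 without any one of the others), and 3 to 6 between classical and non-classical monocytes (3 without either WT library). The log2 difference changed sign with the stricter gate for Pfkp in Lyve1/Folr2 (0.011) and Spp1/Gpnmb macrophages (0.41), Pdk1 in B cells (-0.037) and Pkm in T cells (0.015), with thinning for Slc2a3 in Lyve1/Folr2 macrophages (0.020), and without WT laser for Pdk3 in Lyve1/Folr2 macrophages (-0.71 to 0.24 over libraries left out). Of 11 laser results past the fold upwards, 6 were left without cycling cells and 1 at 2-fold. The 8 downwards became 1 with the stricter gate, 5 with thinning, 15 with TMM, 3 at 50 UMIs and 3 at 2-fold. The 4 genotype results upwards became 1 with the stricter gate and 0 with thinning, at 50 UMIs and at 2-fold, and the 11 downwards became 6 with the stricter gate, 2 with thinning and 1 at 2-fold. The causes were not tested. Of 111 named calls, 73 were kept under every alternative that gave a value. Depth limited neutrophils most, where 1 UMI in Nr4a1-/- laser is worth 17.7 CPM.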
